A study of Homo sapiens with 18 samples.

Results

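KLK2, KLK3 and KLK4 are the kallikrein-related peptidases made in quantity by the prostate, and their transcripts were followed here in LNCaP prostate cancer cells across forms of the transcription factor FOXA1. They were taken as all probes that the platform annotation assigns to the symbols KLK2, KLK3 and KLK4. These are 3 of 20040 annotated genes, with 1 probe each among the 47303 probes of the array (ILMN_2371917, ILMN_1748981 and ILMN_1792363), and all 3 passed the filter on dim probes. LNCaP is an established androgen-dependent line. Cells carried a short hairpin against FOXA1 together with FOXA1 mutant D226N, M253K, F266S, FENG, G87R or L388M, with wild-type (WT) FOXA1, or with GFP (called knockdown below). Control cells carried the empty hairpin vector pGIPZ and GFP. The labels do not define FENG, which is used as given. All cells spent 3 days in medium with 5% charcoal-stripped serum and then received 1 nM of the synthetic androgen R1881 or ethanol, its vehicle, for 24 hours. The 9 constructs under both treatments gave 18 arrays, 1 for each condition, and nothing in the labels says that arrays came from separate cultures, so p-values measure only the spread between these arrays, which may be technical.

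Kallikreins are secreted serine proteases that are made as inactive precursors and activate one another in a cascade. KLK3 encodes prostate-specific antigen (PSA), a chymotrypsin-like protease that cleaves semenogelins in semen and is measured in blood as a prostate cancer marker. KLK2 encodes a trypsin-like relative that can activate the PSA precursor. KLK4 encodes another trypsin-like member, best known outside the prostate for maturing tooth enamel. The androgen receptor drives these genes in the prostate from promoter and distant enhancer elements, and FOXA1 is a forkhead protein that opens chromatin for the receptor. D226N, M253K and F266S change residues in the forkhead, the DNA-binding domain, and G87R and L388M change residues outside it. The first 3 are called forkhead mutants below, and WT, G87R and L388M are called the constructs with an intact forkhead.

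The members lie on chromosome 19 (GRCh38.p14), with KLK3 at 50854915 to 50860764 and KLK2 at 50873439 to 50880567 on the plus strand and KLK4 at 50906351 to 50911395 on the minus strand. Their promoters are shown because all 3 members were lower in the forkhead mutants but responded unequally to androgen. Each sequence is the RefSeq stretch of 300 bases around the gene start (KLK2 chr19:50873189-50873488, KLK3 chr19:50854665-50854964, KLK4 chr19:50911346-50911645), written 5′ to 3′ on the gene's strand, with capitals marking a match to a relaxed androgen response element, GNACA and GTNC with 4 bases between them (N is any base).
KLK2: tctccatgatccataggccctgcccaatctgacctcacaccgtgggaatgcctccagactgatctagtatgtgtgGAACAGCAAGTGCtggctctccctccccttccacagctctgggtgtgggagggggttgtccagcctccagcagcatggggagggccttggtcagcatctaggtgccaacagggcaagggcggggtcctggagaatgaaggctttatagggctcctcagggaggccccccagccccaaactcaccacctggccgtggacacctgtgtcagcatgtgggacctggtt
KLK3: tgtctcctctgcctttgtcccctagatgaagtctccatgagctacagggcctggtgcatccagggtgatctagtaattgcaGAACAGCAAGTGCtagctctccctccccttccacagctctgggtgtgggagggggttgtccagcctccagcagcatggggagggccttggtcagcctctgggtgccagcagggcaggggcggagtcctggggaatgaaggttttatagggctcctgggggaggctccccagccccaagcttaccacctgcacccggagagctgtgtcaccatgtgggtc
KLK4: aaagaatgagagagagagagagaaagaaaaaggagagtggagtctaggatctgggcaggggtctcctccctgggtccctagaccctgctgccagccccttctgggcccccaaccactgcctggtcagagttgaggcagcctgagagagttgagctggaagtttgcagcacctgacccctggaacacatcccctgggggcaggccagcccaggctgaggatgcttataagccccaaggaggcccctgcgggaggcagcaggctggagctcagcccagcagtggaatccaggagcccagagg
KLK2 and KLK3 carried the same match, GAACAGCAAGTGC, at positions -175 and -169 from the start, and KLK4 had none. The relaxed motif, searched on both strands, occurs in 2.19% of 35116 RefSeq promoters of this length. KLK2 and KLK3 also held TATAAA on the other strand (at -34 and -28), which 11.5% of promoters hold. The half-site AGAACA, which can overlap the relaxed motif, was in KLK3 alone among the members (14.8% of promoters). The full element, AGAACA and TGTTCT with 3 bases between them (0.00285%), the forkhead motif TGTTTAC (3.42%) and its core TGTTT (44.4%) were in none of the 3. The KLK2 and KLK3 promoters were identical at 251 of 316 aligned columns (79.4%), with a shared run of 80 bases, whereas KLK4 shared 49.7% with KLK2 and 49.6% with KLK3. A match describes these letters only.

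Mean raw intensity per array ran from 233.1 to 303.9, and 15855 to 17278 probes were detected. The raw signal ran from 120.8 to 578.9 for KLK2, from 96.1 to 524.0 for KLK3 and from 1607.1 to 4312.5 for KLK4, while array medians ran from 88.6 to 95.6. KLK2 and KLK3 were thus read close to background, where background correction sets the size of a difference. KLK3 was not detected in M253K cells given ethanol, and every other member value was detected. The deposited detection p-value there was 0.0286. Constructs differed in how far their response lay from the average response over all probes, with an SD of 0.61 log2 units in M253K, 0.48 in FENG, 0.31 in G87R and 0.22 to 0.29 in the others. Fits without M253K ethanol, FENG R1881 and G87R ethanol, which an earlier analysis of these arrays set apart, are given where they change a call. Those arrays are called the arrays that stand apart below. The 2 arrays of a construct deviate equally in the additive fit, so it cannot say which of them differs. The FOXA1 probe read 11.07 (R1881) and 11.16 (ethanol) in knockdown cells, against 11.73 and 11.93 in control cells, a difference of -0.71 ± 0.13 (SE, limma adjusted p = 0.00523). It read 10.61 to 11.10 in the other hairpin lines. Luminal markers were detected for 7 of 7 genes with a probe. Of a basal list, 3 of 5 genes with a probe were detected, and KRT5 and KRT14 were not. Of a leukocyte, endothelial and fibroblast list, 3 of 10 were detected, and PTPRC, CD3E and PECAM1 were among those not.

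R1881 raised all 3 members. KLK2 rose 3.93-fold, KLK3 2.88-fold and KLK4 1.56-fold over the 9 constructs. In RNA of whole cultures, fewer expressing cells and less RNA per cell cannot be told apart, here or in the comparisons below. With R1881, KLK3 ranged from 6.68 to 8.66 log2 units over the constructs, against 4.78 to 7.08 with ethanol. KLK2 ranged from 7.30 to 8.83 with R1881, against 5.58 to 6.90 with ethanol. KLK4 ranged from 11.52 to 12.03 with R1881, against 10.55 to 11.57 with ethanol. Each member was higher with R1881 within every one of the 9 constructs, a pattern found in 3.32% of probes, although the KLK3 and KLK4 ranges of the 2 treatments overlapped. In the additive limma fit the difference was 1.97 ± 0.15 for KLK2 (SE, adjusted p = 6.24e-06). It was 1.52 ± 0.10 for KLK3 (limma adjusted p = 2.35e-06) and 0.64 ± 0.07 for KLK4 (limma adjusted p = 0.000168). Of all 20117 probes tested, 4.61% were called higher. Without background correction the KLK2 and KLK3 differences were 1.30 and 0.97, both still called.

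The KLK3 level with R1881 did not always reach the ethanol level of control cells. In M253K, F266S and FENG cells, KLK3 with R1881 (6.68, 6.86 and 7.04) lay below control cells given ethanol (7.08). For KLK2 and KLK4 no construct with R1881 lay below control cells given ethanol. The result depends on the reference, as control cells had the highest KLK3 ethanol value of the 9 constructs. Against WT cells given ethanol (6.75), only M253K with R1881 was lower for KLK3. For KLK4, the 3 forkhead mutants with R1881 (11.52 to 11.54) lay below L388M cells given ethanol (11.57). These are single arrays and were not tested.

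**Figure D1:**
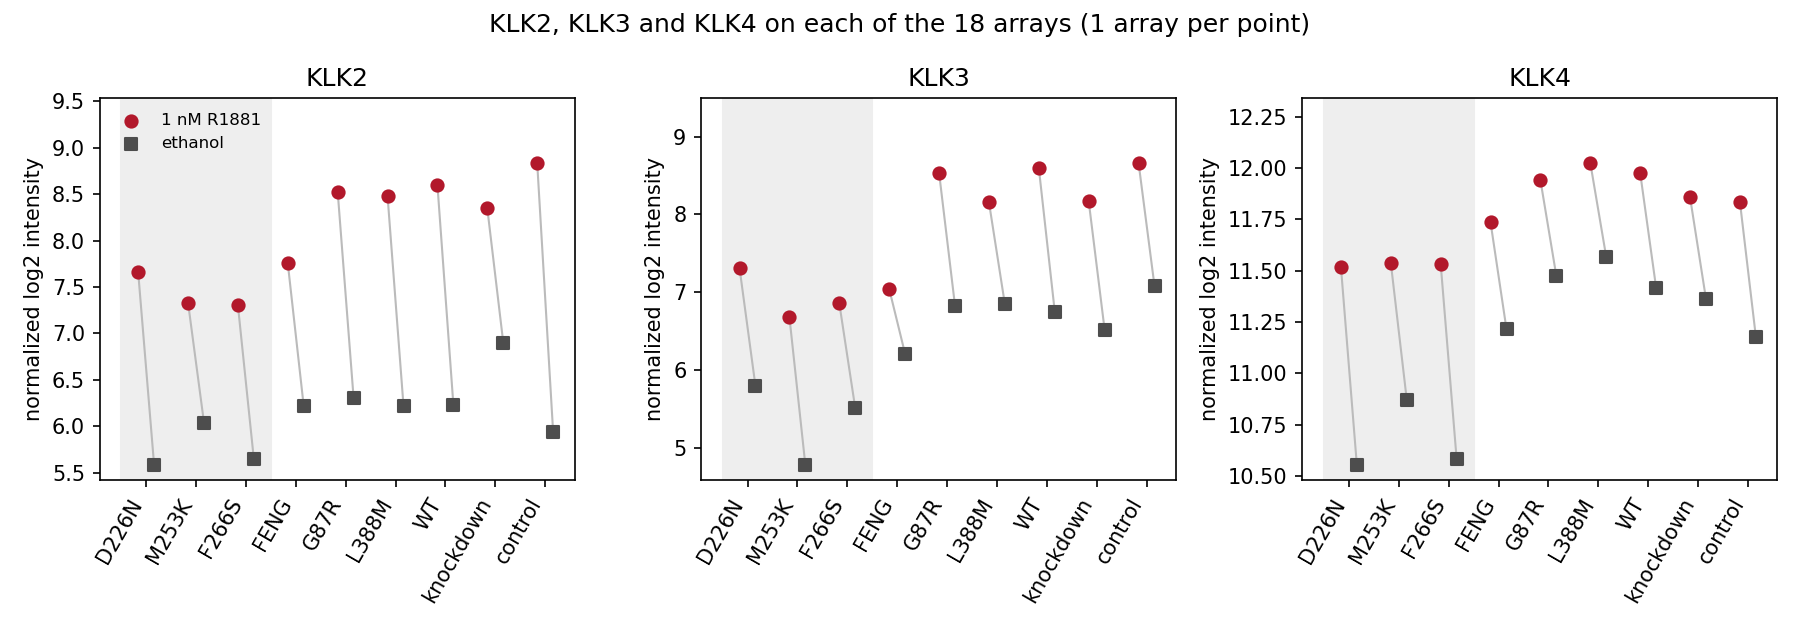
Log2 normalized intensity of KLK2, KLK3 and KLK4 (vertical axes) in each construct (horizontal axis), 1 point per array, with R1881 and with ethanol; the grey band marks the forkhead mutants. On the R1881 arrays KLK2 and KLK4 are lowest in the grey band, KLK3 is at most 7.31 there and 7.04 in FENG, and M253K has the lowest KLK3 under both treatments (6.68 and 4.78).

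The members responded to different extents on the same arrays. The KLK2 response was 2.08 in D226N, 1.29 in M253K, 1.66 in F266S, 1.54 in FENG, 2.22 in G87R, 2.26 in L388M, 2.37 in WT, 1.44 in knockdown and 2.90 in control cells. The KLK3 response was 1.52, 1.90, 1.35, 0.84, 1.71, 1.31, 1.85, 1.66 and 1.58 in the same constructs. The KLK4 response was 0.97, 0.67, 0.95, 0.52, 0.47, 0.46, 0.56, 0.50 and 0.66 in that order. Control cells had the highest KLK2 response and M253K cells the lowest. In M253K the undetected ethanol value makes the KLK3 response a bound of at least 3.28-fold (1.71 log2). Its rank against WT is thus not known, and the bound lies only just above the G87R response (1.7139 against 1.7114). KLK2 responded more than KLK4 in 9 of 9 constructs, by 1.33 on average (SD 0.57), and KLK3 more than KLK4 in 9 of 9, by 0.89 (SD 0.38). Both gave an exact two-sided sign-flip permutation p of 0.00391, the smallest that 9 constructs allow (0.00586 after Benjamini-Hochberg adjustment over the 3 pairs). KLK2 responded more than KLK3 in 7 of 9 constructs, by 0.45 (SD 0.58), which did not pass (exact permutation p = 0.0547). These are responses of single probes of unequal brightness, so the order describes the probes.

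**Figure D2:**
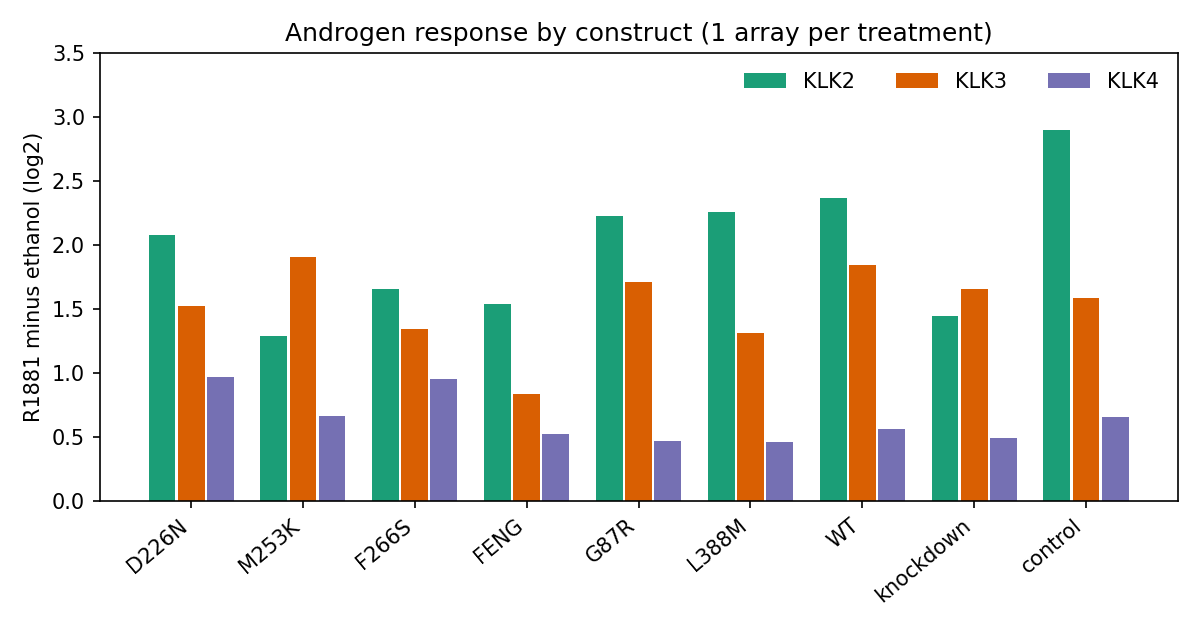
Androgen response (R1881 minus ethanol, log2) of the 3 members in each construct, bars from 0, 1 array per treatment. KLK2 bars run from 1.29 to 2.90, KLK3 bars from 0.84 to 1.90 and KLK4 bars from 0.46 to 0.97.

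All 3 members were lower in the forkhead mutants than in the constructs with an intact forkhead, and KLK3 differed most. Over both treatments KLK3 was 2.76-fold lower, KLK2 1.74-fold lower and KLK4 1.55-fold lower. The additive limma fit gave -1.47 ± 0.13 for KLK3 (adjusted p = 8.61e-06), -0.80 ± 0.18 for KLK2 (adjusted p = 0.0136) and -0.63 ± 0.09 for KLK4 (adjusted p = 0.000631). Its SE and p come from differences in response, so the spread in level between constructs of a class does not enter them. The fits by treatment below do use that spread. Of all probes 5.48% were called lower. The KLK2 call was lost without F266S R1881 (limma adjusted p = 0.0515) and without WT R1881 (limma adjusted p = 0.0526). Without background correction the KLK3 difference was -0.89, and all 3 stayed past the threshold in the fit without the 3 arrays that stand apart (-0.95 for KLK2, -1.43 for KLK3 and -0.60 for KLK4).

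On the R1881 arrays alone, all 3 members were called lower. KLK3 with R1881 was 7.31 in D226N, 6.68 in M253K and 6.86 in F266S cells, against 8.54 in G87R, 8.16 in L388M and 8.60 in WT cells. KLK2 with R1881 was 7.66, 7.33 and 7.30 in the same mutants, against 8.53, 8.48 and 8.60 in G87R, L388M and WT. KLK4 with R1881 was 11.52, 11.54 and 11.53 in the mutants, against 11.94, 12.03 and 11.98. The classes did not overlap for any member, which 16.2% of probes show in this direction. KLK3 averaged 6.95 ± 0.33 in the forkhead mutants and 8.43 ± 0.24 with an intact forkhead (SD, n = 3 each), a difference of -1.48 ± 0.18 (SE, limma adjusted p = 0.00446). KLK2 averaged 7.43 ± 0.20 in the mutants and 8.53 ± 0.06 with an intact forkhead, a difference of -1.10 ± 0.12 (limma adjusted p = 0.00292). KLK4 averaged 11.53 ± 0.01 in the mutants and 11.98 ± 0.04 with an intact forkhead, a difference of -0.45 ± 0.10 (limma adjusted p = 0.0328). Of all probes 2.67% were called lower. The KLK4 call was lost when M253K, F266S, G87R, L388M or WT was left out (limma adjusted p of 0.0669 to 0.123) and held only without D226N. It also missed the threshold with median scaling (limma adjusted p = 0.0501), as did KLK3 in the authors' processed table (limma adjusted p = 0.0628).

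On the ethanol arrays the same direction was seen and no member passed. KLK3 with ethanol was 5.79 in D226N, 4.78 in M253K and 5.51 in F266S cells, against 6.83 in G87R, 6.84 in L388M and 6.75 in WT cells. KLK2 with ethanol was 5.58, 6.04 and 5.64 in the mutants, against 6.30, 6.22 and 6.23. KLK4 with ethanol was 10.55, 10.87 and 10.58 in the mutants, against 11.47, 11.57 and 11.42. The classes again did not overlap for any member, which 8.84% of probes show in this direction. The differences were -1.45 ± 0.25 for KLK3 (limma adjusted p = 0.0897), -0.82 ± 0.14 for KLK4 (limma adjusted p = 0.0902) and -0.50 ± 0.16 for KLK2 (limma adjusted p = 0.327). Unadjusted limma p-values were 0.000557 (KLK3), 0.000578 (KLK4) and 0.0154 (KLK2), ranks 125, 129 and 948 of 20117 probes in either direction. At adjusted p under 0.05, 0.0348% of probes were called lower in this fit. Without M253K all 3 members passed (KLK3 -1.16, KLK4 -0.92 and KLK2 -0.64, limma adjusted p of 0.00675 to 0.0487), where 0.423% of probes were called lower. KLK3 also passed without D226N (-1.66, limma adjusted p = 0.0392) and with control cells added to the intact-forkhead class (-1.52, limma adjusted p = 0.0287). Without background correction the ethanol differences were -0.69 for KLK3 and -0.23 for KLK2.

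The response itself was tested as a difference of differences, and no member passed. The KLK2 response averaged 1.68 ± 0.39 in the forkhead mutants and 2.28 ± 0.07 with an intact forkhead (SD, n = 3 each), with no overlap. The difference was -0.61 (95% interval -1.12 to -0.10, limma adjusted p = 0.999). The KLK4 response averaged 0.86 ± 0.17 in the mutants and 0.50 ± 0.06 with an intact forkhead, with no overlap in the opposite direction. That difference was 0.37 (95% interval -0.01 to 0.75, limma adjusted p = 0.999). The KLK3 response averaged 1.59 ± 0.28 in the mutants and 1.62 ± 0.28 with an intact forkhead, and the classes overlapped. That difference was -0.03 (95% interval -0.54 to 0.47, limma adjusted p = 0.999). Responses that do not overlap were found in 4.97% of probes in the lower direction and 3.64% in the higher one. limma called 0 of 20117 probes here (0%), and 660 (3.28%) had an unadjusted p under 0.05, KLK2 among them (0.025). The KLK3 values include the undetected M253K ethanol array, and without background correction its response difference was -0.40 ± 0.13 (SE, limma adjusted p = 0.9995), from -1.09 with R1881 and -0.69 with ethanol.

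**Figure D3:**
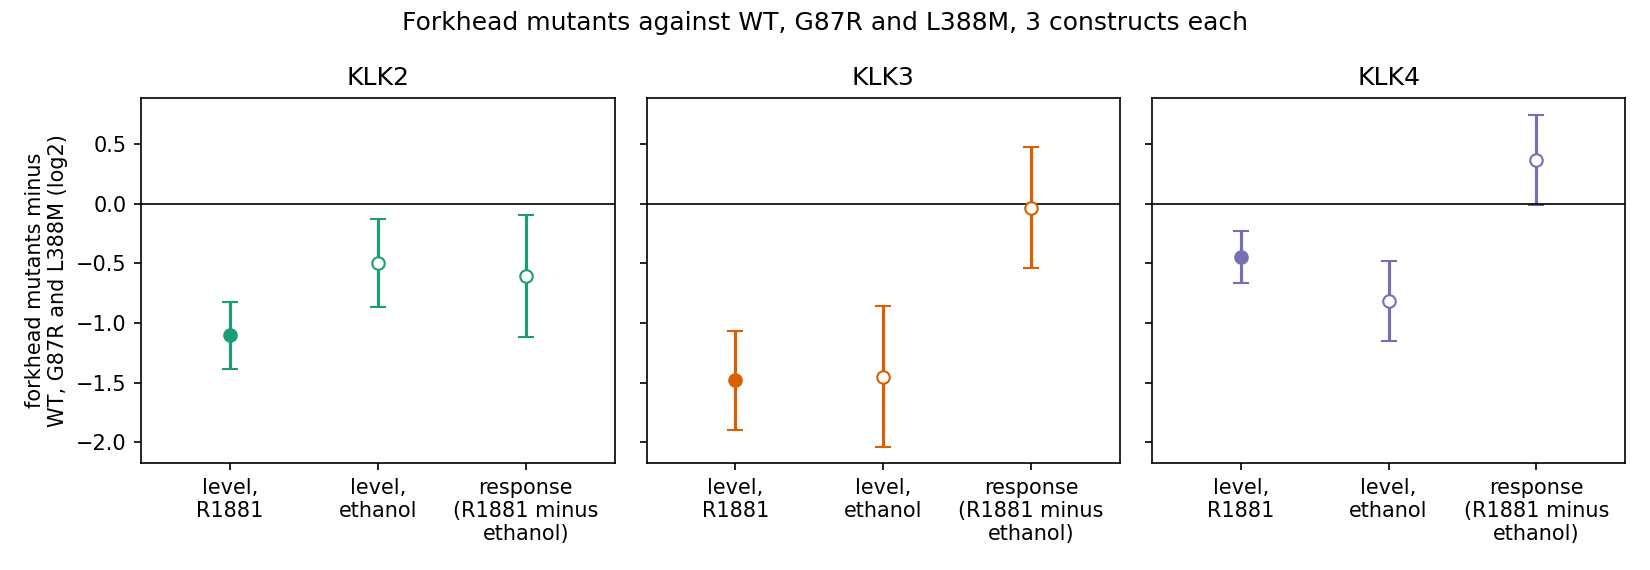
Log2 difference of the forkhead mutants from WT, G87R and L388M for each member with R1881, with ethanol and in the response; points are limma differences, bars 95% intervals, and filled points have adjusted p under 0.05. KLK3 sits at -1.48 and -1.45 in the 2 treatments and at -0.03 in the response, where every point is open.

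Among single mutants set against WT, which share the 2 WT arrays, KLK3 was the member called in each forkhead mutant. KLK3 was 3.85-fold lower in M253K cells (-1.95 ± 0.22, SE, limma adjusted p = 0.000137), 2.81-fold lower in F266S (-1.49, limma adjusted p = 0.00199) and 2.18-fold lower in D226N (-1.12, limma adjusted p = 0.0307). Without background correction these were -1.13 in M253K and -0.96 in F266S, both still called. The M253K value averages in the undetected ethanol array, where WT was at least 3.44-fold higher. FENG cells were also lower for KLK3 by 2.07-fold (-1.05, limma adjusted p = 0.0191). Probes called lower made up 3.3% in M253K, 1.14% in F266S, 0.194% in D226N and 1.17% in FENG, and 0.149% were called lower in all 4 of these comparisons. KLK4 was called lower in F266S alone (-0.64 ± 0.16, limma adjusted p = 0.0477), with -0.66 in D226N (adjusted p = 0.0984), -0.49 in M253K (adjusted p = 0.0756) and -0.22 in FENG (adjusted p = 0.558). KLK2 passed in none, at -0.94 in F266S, -0.79 in D226N, -0.73 in M253K and -0.43 in FENG (limma adjusted p of 0.166 to 0.578). With array weights KLK2 passed in F266S (limma adjusted p = 0.0164) and KLK4 in D226N (limma adjusted p = 0.00918). Without background correction KLK4 passed in D226N and M253K as well (limma adjusted p = 0.0398 and 0.0325), and with median scaling in M253K (limma adjusted p = 0.0441). Each comparison rests on 2 arrays against 2, and the D226N KLK3 and F266S KLK4 calls were lost whichever 1 of the 4 arrays was left out. The D226N KLK3 difference also missed the threshold without background correction (-0.75, limma adjusted p = 0.111), without a filter and in the authors' processed table, and the F266S KLK4 difference with median scaling (limma adjusted p = 0.0541). The FENG KLK3 call was lost without FENG R1881, WT R1881 or WT ethanol (limma adjusted p of 0.0639 to 0.228) and in the fit without the 3 arrays that stand apart (-0.70, limma adjusted p = 0.0699).

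FENG differed between treatments in its KLK3 values. With R1881 it read 7.04, which is 1.55 below WT, and with ethanol 6.21, which is 0.55 below WT. Its KLK3 response of 0.84 was the lowest of the 9. This difference between treatments rests on single arrays and was not tested, and FENG R1881 is one of the arrays that the earlier analysis set apart.

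G87R and L388M lay near WT for all 3 members. Differences from WT were 0.00, 0.01 and 0.01 for KLK2, KLK3 and KLK4 in G87R and -0.06, -0.17 and 0.10 in L388M (limma adjusted p of 0.9999 to 1). With median scaling, and relative to the shift of all probes it brought, they were -0.01, 0.0005 and -0.04 in G87R and -0.08, -0.21 and 0.02 in L388M, so the G87R values have no stable sign. The 95% interval for KLK3 was -0.46 to 0.48 in G87R and -0.64 to 0.30 in L388M, so differences of that size could not be seen. Called probes made up 0% in G87R and 0.00497% in L388M.

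**Figure D4:**
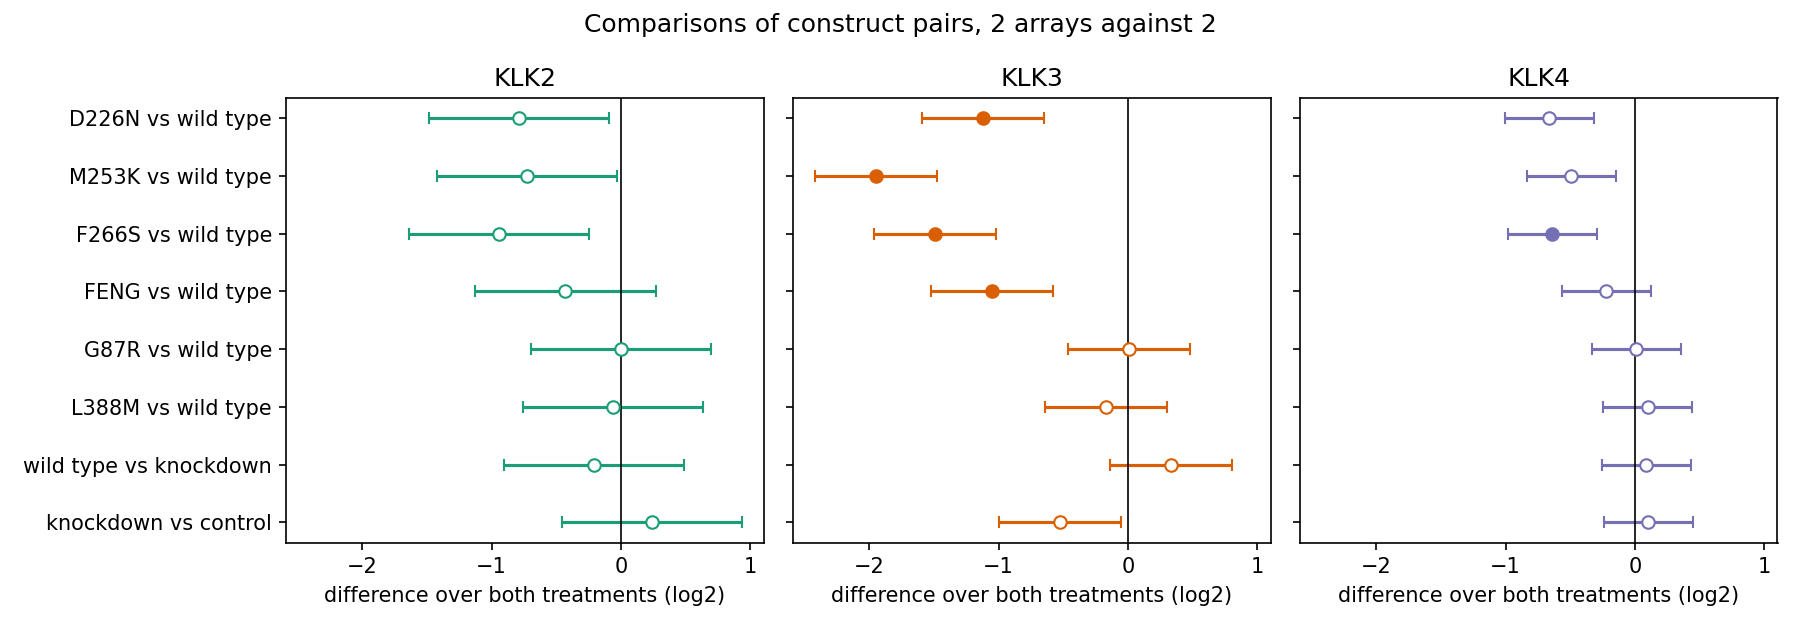
Log2 difference of each mutant from WT, of WT from knockdown and of knockdown from control for the 3 members, over both treatments; points are limma differences, bars 95% intervals, and filled points have adjusted p under 0.05. KLK3 is filled in M253K, F266S, D226N and FENG, and KLK4 in F266S only.

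Knockdown of FOXA1 without replacement left all 3 members short of the threshold (5.44% of probes were called in either direction). KLK3 was 8.17 with R1881 and 6.51 with ethanol in knockdown cells, against 8.66 and 7.08 in control cells. KLK2 was 8.34 with R1881 and 6.90 with ethanol in knockdown cells, against 8.83 and 5.93 in control cells. KLK4 was 11.86 with R1881 and 11.36 with ethanol in knockdown cells, against 11.83 and 11.18 in control cells. KLK3 was lower by 0.49 with R1881 and 0.56 with ethanol, while KLK2 was 0.49 lower with R1881 and 0.97 higher with ethanol. The limma differences were -0.53 ± 0.22 for KLK3 (adjusted p = 0.228), 0.24 ± 0.32 for KLK2 (adjusted p = 0.829) and 0.10 ± 0.16 for KLK4 (adjusted p = 0.857). KLK3 had an unadjusted p of 0.0315, and passed in the fit without the 3 arrays that stand apart (adjusted p = 0.0425). Wild-type FOXA1 against knockdown gave 0.33 ± 0.22 for KLK3, -0.21 ± 0.32 for KLK2 and 0.09 ± 0.16 for KLK4 (limma adjusted p of 0.615 to 0.932, with 2.9% of probes called in either direction). Averaged over both treatments, adding back WT thus did not detectably change any member. The 95% intervals were -0.14 to 0.80 for KLK3 and -0.91 to 0.49 for KLK2, so differences of that size could not be seen. On single arrays, the KLK2 difference was 0.25 with R1881 and -0.67 with ethanol. It was 0.43 and 0.24 for KLK3 and 0.12 and 0.05 for KLK4, and none was tested by treatment. The FOXA1 probe gave -0.35 ± 0.13 in the same comparison (limma adjusted p = 0.227), so it gave no sign of more FOXA1 RNA in WT cells. Whether this probe reads the introduced FOXA1 was not tested.

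Ranked by the mean of both treatments, KLK3 ran from control (7.87), G87R (7.68), WT (7.67), L388M (7.50) and knockdown (7.34) to FENG (6.62), D226N (6.55), F266S (6.18) and M253K (5.73). The widest step between neighbours, knockdown over FENG, was 0.72 ± 0.22 and did not pass (limma adjusted p = 0.252), and no other neighbours differed. For KLK2 knockdown cells were highest (7.62) and F266S lowest (6.47), and for KLK4 L388M was highest (11.80) and D226N lowest (11.04), again with no neighbours that differed. For all 3 members the 3 lowest constructs were the forkhead mutants, with FENG next. The share of all probes with this order was not counted, so how unusual it is cannot be said. Over the 9 constructs the members' levels with R1881 correlated with each other at Pearson r of 0.98 (KLK2 and KLK3), 0.89 (KLK2 and KLK4) and 0.86 (KLK3 and KLK4). With ethanol these were 0.41, 0.76 and 0.76, and for the responses 0.14, -0.08 and -0.00. These are descriptions over values that share arrays. KLK2 and KLK3 are close relatives in sequence, and whether their probes take up each other's RNA was not tested.

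The other kallikrein genes were mostly not detected. Of 13 further genes with 22 probes, 18 probes were detected on no array, and 3 genes passed the filter, KLK11, KLK15 and the pseudogene KLKP1. KLKP1, which lies between KLK2 and KLK4 at 50882096 to 50896398, followed the members. It read 6.03 to 6.26 with R1881 and 5.16 to 5.50 with ethanol in the forkhead mutants, against 6.82 to 7.25 and 6.23 to 6.68 with an intact forkhead. It was raised by R1881 (0.65 ± 0.07, limma adjusted p = 8.64e-05) and lower in the class contrast (-1.05 ± 0.08, limma adjusted p = 5.09e-06). It was called lower than WT in D226N, M253K, F266S and FENG (-0.92, -1.13, -1.21 and -0.92). KLK15, by the probe that passed the filter, was lower in the class contrast (-0.64 ± 0.13, limma adjusted p = 0.00707) and did not pass for R1881 (0.27 ± 0.11, adjusted p = 0.15). The other KLK15 probe was detected on no array. The tested probe ran from 4.46 to 5.71 log2 units, close to background, and was detected on 10 of 18 arrays. With R1881 it was detected in D226N but not in M253K or F266S, and in all of G87R, L388M and WT. KLK11 passed in neither.

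Within 200 kb of the members the array covers 23 genes with 35 probes, of which 11 probes passed the filter. By limma, R1881 raised 4 of these probes and lowered 0 (4.61% and 5.04% of all probes). The class contrast called 3 lower and 0 higher (5.48% and 6.7% of all probes). The raised probes were those of KLKP1, SNORD88B and C19orf48P, and the lower ones those of KLKP1, KLK15 and C19orf48P. SNORD88B lies inside C19orf48P, so these are not independent neighbours. C19orf48P, a pseudogene at 50797704 to 50804594, had 2 of its 3 probes raised (0.86 ± 0.07 and 0.89 ± 0.23, limma adjusted p = 1.25e-05 and 0.0273) and 1 lower in the class contrast (-0.57 ± 0.09, adjusted p = 0.0012). C19orf48P was also the gene whose level over the 18 arrays was most like KLK4 (Pearson r = 0.96), ahead of TMPRSS2 (0.91), and second for KLK2 (0.97) after TUBA3D (0.97). For KLK3 the closest were RAB4A (0.96), ECI2 (0.95) and GAMT (0.95). Over the 9 responses the closest were VEGFA for KLK2 (0.98), PRR32 for KLK3 (0.95) and TTR for KLK4 (0.90). These likenesses were the best of 11590 genes, over few points, and carry no test.

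Among 43 measured genes of a textbook androgen-induced list, R1881 raised 35 and lowered 1 (5.11% and 6.54% of 11590 genes). Their median difference was 0.84, against -0.02 over all genes. The largest were FKBP5, an HSP90 co-chaperone (2.89), and the transcription factor MAF (2.68). In the class contrast over both treatments 10 of them were lower and 5 higher (median -0.19, against -0.01 over all genes, of which 6.41% were lower and 8.34% higher). ACP3, prostatic acid phosphatase, was lower (-1.48 ± 0.08, limma adjusted p = 2.43e-07), as was the surface protease TMPRSS2 (-1.08 ± 0.16, adjusted p = 0.000805), while HPGD, a prostaglandin dehydrogenase (1.85), and the kinase SGK1 (1.30) were higher. On the R1881 arrays 12 were lower and 1 higher, against 3.24% and 3.34% of all genes. For the response difference limma called 0 (median -0.23, against -0.03). Of all 927 probes raised by R1881, 13.4% were lower and 12.6% higher in the class contrast, against 5.48% and 6.7% of all probes. Both shares were thus above those of all probes, while a lower level in forkhead mutants was not the rule among androgen-raised probes.

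A list of substrates, inhibitors and activators linked to these proteases held genes that moved either way. Of its 15 measured genes, 6 were higher and 2 lower in the forkhead mutants over both treatments (median 0.27, against -0.01), where 8.34% of all genes were called higher and 6.41% lower. On the R1881 arrays 1 was higher and 3 lower, TMPRSS2 (-1.20), the surface protease hepsin HPN (-0.61) and IGFBP2 (-0.54), against 3.34% and 3.24% of all genes. On the ethanol arrays limma called 0 of them. SERPINA3, an inhibitor that binds PSA in blood, was higher by 2.54 ± 0.23 (SE, limma adjusted p = 1.22e-05). IGFBP3, a growth factor binding protein that PSA can cleave, was higher by 1.63 ± 0.09 (limma adjusted p = 2.63e-07), and SEMG1, a semenogelin, by 1.32 ± 0.13 (limma adjusted p = 2.85e-05). These 3 were also higher in knockdown than in control cells (3.18, 3.40 and 1.84). Among 18 androgen receptor cofactors, 0 were higher by limma and 4 lower in the forkhead mutants (8.34% and 6.41% of all genes), GATA2 (-0.76), HOXB13 (-0.52), KDM1A (-0.46) and EZH2 (-0.38). Markers of other cell types differed between the classes as well. The summed level of the basal list, with 3 of 5 genes detected and KRT5 and KRT14 not, was 142.7 to 486.5 in the forkhead mutants, against 69.0 to 101.6 with an intact forkhead (6 arrays each). The leukocyte, endothelial and fibroblast list, with 3 of 10 genes detected and PTPRC, CD3E and PECAM1 among those not, summed to 706.9 to 1834 in the mutants, against 438.6 to 698 with an intact forkhead. The genes with the largest differences were LAMB3, a laminin chain of basal cells (2.16 ± 0.14), and CD68, a macrophage marker (1.51 ± 0.12). Of the neuroendocrine list, 1 of 6 genes with a probe was detected, ENO2, and it was lower (-1.01 ± 0.17). The luminal list summed to 7645 to 8859 in the mutants, against 8069 to 9848 with an intact forkhead. Their part in the kallikrein differences was not tested.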

How the data were processed

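Total RNA of LNCaP cells was hybridised to 18 Illumina HumanHT-12 V4 arrays. The table the authors deposited holds, per the file headers, a raw intensity and a detection p-value per probe, and the submitters' processing notes name GenomeStudio. Raw signal never fell below 68.4, which shows that no background was removed. The authors' deposited value table gives processed intensity (down to -15.4) and served as an alternative. How it was made is not given in the sources used here. Columns of other samples numbered 0.

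Background correction used neqc of limma 3.58.1 in R 4.3.3 (offset 16, background inferred from detection), followed by quantile normalization and log2. Probes with detection p under 0.01 on at least 2 arrays were kept (20117 of 47303). Annotation gave 1 gene for 30102 probes, several for 8 and none for 17193, and symbols were updated for 99.87% of named probes (RefSeq, GRCh38.p14). Gene lists used the brightest kept probe of each gene.

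The model over all arrays was additive in limma, with construct and treatment as terms (8 residual degrees of freedom), so differences between constructs in response stand in for repeats. Its class contrast over both treatments thus leaves out the spread in level between constructs of a class. Class contrasts within a treatment, and on responses, treated constructs as replicates (4 residual degrees of freedom). Calls required an adjusted p (Benjamini-Hochberg, all kept probes) below 0.05. Precision is limited by how few arrays there are. The procedure was tested on simulated data with independent noise for each value, without arrays that stand apart or constructs that differ in response. That test thus does not cover these features of the arrays. Members and lists were chosen with earlier results of these data known. Named genes were the members, detected other kallikreins, up to 4 list genes with the largest called differences, and the 5 most alike by Pearson r. Alternatives were median scaling, no background correction, the processed table (floor 16), no filter, detection on all arrays, gene level, array weights, FENG left out, control added to the class of WT, and arrays or constructs left out. Promoter sequences are from RefSeq (GRCh38.p14).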

Additional observations from a re-analysis of the deposited data

How the results depend on the processing

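The 2 arrays of each construct were paired across treatments by the construct term, and for the androgen response also in the exact sign-flip permutation test over the 9 constructs (p = 0.00391 for each member). No paired analysis by replicate number was possible because the labels carry none. Leaving out arrays or constructs aside, 12 alternatives gave 409 values, of which 373 kept direction and side of the threshold. KLK3 could not be tested with detection on all arrays. Where a call or direction changed, the cause was not tested.

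Median scaling shifted all probes by up to -0.20 (L388M against WT). It turned near-zero differences to -0.0114 for KLK4 in knockdown (0.07 relative to the shift there), to -0.0726, -0.0603 and -0.10 for KLK2, KLK3 and KLK4 in G87R, to -0.18 for KLK4 in L388M (0.02 relative to that shift), and to 0.007 for the KLK3 response difference. Without background correction G87R gave -0.0113 for KLK2 and -0.0022 for KLK3. The processed table gave 0.23 for the KLK3 response difference, and the fit without 3 arrays -0.10 for KLK4 in G87R.

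Members called in M253K numbered 2 with median scaling or no background correction. In F266S they numbered 1 with median scaling and 3 with array weights. In D226N they numbered 0 with the processed table or no filter and 2 with array weights. Without the 3 arrays they numbered 1 in knockdown and 0 in FENG. For the class in ethanol they numbered 1 with control added and 2 without M253K and G87R, an alternative chosen after seeing the data. Probes called lower in M253K numbered 881 with median scaling and 799 without background correction (664 in the main fit). In F266S they numbered 129 with median scaling (230), and in D226N 70 with the processed table (39). For the other settings named here, calls over all probes are not given, so those member counts stand without a share. Class differences with R1881 missed the threshold for KLK4 with median scaling (-0.51, limma adjusted p = 0.0501) and for KLK3 in the processed table (-1.62, limma adjusted p = 0.0628). In ethanol KLK3 passed with control added (-1.52), and KLK3 (-1.15) and KLK4 (-0.92) passed without M253K and G87R.

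Leaving out 1 array or construct at a time, the class in both treatments ran from -0.93 to -0.67 (KLK2), -1.54 to -1.39 (KLK3) and -0.69 to -0.57 (KLK4), with 2 to 3 members called. With R1881 it ran from -1.22 to -1.04 (KLK2), -1.66 to -1.35 (KLK3) and -0.47 to -0.43 (KLK4), with 2 to 3 called. In ethanol it ran from -0.64 to -0.41 (KLK2), -1.66 to -1.16 (KLK3) and -0.92 to -0.76 (KLK4), with 0 to 3 called. The response difference ran from -0.81 to -0.42 (KLK2), -0.19 to 0.0882 (KLK3) and 0.31 to 0.46 (KLK4), with 0 called. The androgen response ran from 1.86 to 2.06 (KLK2), 1.48 to 1.61 (KLK3) and 0.60 to 0.66 (KLK4), with 3 called throughout. Against WT, M253K kept 1 member called and F266S 1, D226N 0 and FENG 0 to 1, with KLK3 from -2.16 to -1.73, -1.67 to -1.31, -1.30 to -0.94 and -1.44 to -0.66. KLK4 in F266S ran from -0.81 to -0.46. G87R ran from -0.22 to 0.22 (KLK2), -0.17 to 0.19 (KLK3) and -0.0848 to 0.11 (KLK4), and L388M from -0.28 to 0.16, -0.35 to 0.0088 and -0.0017 to 0.20. KLK2 in knockdown ran from -0.28 to 0.76, and in WT against knockdown from -0.51 to 0.0881. Members called stayed at 0 in these 4 comparisons. Apart from the class in ethanol without M253K, calls over all probes are not given for these settings.

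Median scaling also moved the split of higher and lower calls over all probes, to 672 and 342 for the class with R1881 (599 and 538 with quantile normalization), to 536 and 881 in M253K (1114 and 664) and to 202 and 183 in WT against knockdown (233 and 350). The processed table moved it to 156 and 201, to 0 and 2 for the class in ethanol (28 and 7), and to 147 and 70 in D226N (144 and 39). KLK2 and KLK3 signals near background limit the size of their differences.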
